A study of Mus musculus with 14 samples.

Results

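The genes described here encode proteins that neutrophils store in their granules or cytosol: *S100a8*, *S100a9*, *Ngp*, *Camp*, *Ltf*, *Lcn2*, *Mpo*, *Elane*, *Prtn3* and *Ctsg*. They were chosen by name for what their products do, and their symbols were found through the RefSeq accessions of the RNA-seq tables. All 10 were present, each as 1 locus of the 23152 that every table lists. The study asked what the promoter factor TAF9B does in motor neurons, and these genes belong to none of its neuronal groups. They are instead genes of cells that bone marrow makes, and a dissected spinal column includes vertebrae. How much of a library came from marrow and how much from circulating blood was not tested.

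Neutrophils are made in the marrow in steps that fill their granules in order. Promyelocytes make the primary (azurophil) granule proteins first, the peroxidase MPO and the serine proteases neutrophil elastase, proteinase 3 and cathepsin G. Myelocytes and later stages then make the secondary granule proteins, among them lactoferrin, lipocalin 2, the cathelicidin CAMP and NGP, and mature cells hold very large amounts of S100A8 and S100A9, which pair as calprotectin and act as alarmins when released. *S100a8*, *S100a9* and *Lcn2* are also made outside the blood, for example by stressed epithelium and skin, so that they do not mark neutrophils by themselves.

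The RNA-seq data are 11 libraries of C57BL/6 mouse material, with 1 library per condition and no replicates, so that no difference could be set against a spread between samples and no test of a condition was made. ES cells and embryoid bodies (EBs) of days 2, 4 and 6 came from the JM8 clone (WT) and from the Taf9b_BG10 clone labelled TAF9B -/- (KO), each a single clone. In the KO, a LacZ-Neo cassette takes the place of the protein-coding exons of the X-linked *Taf9b* gene. ES cells had been kept on feeder fibroblasts with LIF, and the EBs were led toward motor neurons with retinoic acid and the agonist SAG. The tissues were the lumbar spinal column of newborn WT and KO littermates, from mice derived from these ES cells, and the spinal cord of newborn WT mice. Whether a tissue library holds 1 animal or several is not given in the sources used here. The values are FPKM, which are fragments scaled to the length of the transcript and to the size of the library, as deposited.

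*Taf9b* itself was at 6.65 FPKM in the WT and 3.31 FPKM in the KO spinal column, lower in the library labelled KO but not absent. In the cultures it ran against the labels: ES cells had 0.537 FPKM under the WT label against 3.06 FPKM under the KO label, and the KO label had the higher value at all EB stages too. Other genes differed between the labels as well. In EBs of day 6 *Tubb3*, a tubulin of neurons, was at 561 FPKM under WT and 41.3 FPKM under KO, and *Pou5f1*, a gene of pluripotent cells, at 198 and 543 FPKM. WT and KO below are the names on the labels. Cartilage and bone markers summed to 88.4 FPKM in spinal cord, 2094 FPKM in the WT column and 1533 FPKM in the KO column, and neuron markers to 2335, 1129 and 623 FPKM. All 8 leukocyte markers, led by *Fcer1g* and *Tyrobp*, were above 1 FPKM in both column libraries, where they summed to 213 FPKM (WT) and 382 FPKM (KO) against 84.7 FPKM in spinal cord. RNA of genes active in leukocytes was thus measured in the column, but the kind of cell it came from was not tested. *Coro1a*, one of the 8, was at 29.9 FPKM in spinal cord and in the WT column alike. *Laptm5*, another, was at 46.2 FPKM in WT ES cells. In a bulk tissue fewer cells of a type and less RNA per cell cannot be told apart.

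By summed FPKM the 4 primary granule genes were the class with the largest ratio of KO over WT spinal column, and the 250 bases before their start sites are printed for that reason. The sequences are those of RefSeq on build GRCm38.p6, in which all 10 genes had an entry. This build differs from the mm9 build of the RNA-seq tables, and no position was carried from one to the other. The windows are chr11:87793534-87793783 (plus strand) for *Mpo*, chr10:79886062-79886311 (plus strand) for *Elane*, chr10:79879417-79879666 (plus strand) for *Prtn3* and chr14:56102575-56102824 (minus strand) for *Ctsg*. Each is written 5′ to 3′ on the strand of its gene. Capitals mark GAGGAAG, whose GGAA core is the one that ETS-family factors such as PU.1 bind. The core alone was neither marked nor counted. It also stands outside the capitals, as in *Ctsg*, and in windows of other granule genes, among them *Ngp* and *Ltf*. It is thus not particular to the primary granule genes.
Mpo: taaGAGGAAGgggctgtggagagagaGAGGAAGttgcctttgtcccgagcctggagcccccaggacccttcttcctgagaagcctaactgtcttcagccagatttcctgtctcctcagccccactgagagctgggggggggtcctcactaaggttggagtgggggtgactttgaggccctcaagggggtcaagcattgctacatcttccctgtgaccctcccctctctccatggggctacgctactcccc
Elane: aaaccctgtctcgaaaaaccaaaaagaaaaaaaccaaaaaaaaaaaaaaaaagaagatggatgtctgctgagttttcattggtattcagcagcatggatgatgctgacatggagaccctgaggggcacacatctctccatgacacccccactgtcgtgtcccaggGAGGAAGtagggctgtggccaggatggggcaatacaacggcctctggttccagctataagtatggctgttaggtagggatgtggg
Prtn3: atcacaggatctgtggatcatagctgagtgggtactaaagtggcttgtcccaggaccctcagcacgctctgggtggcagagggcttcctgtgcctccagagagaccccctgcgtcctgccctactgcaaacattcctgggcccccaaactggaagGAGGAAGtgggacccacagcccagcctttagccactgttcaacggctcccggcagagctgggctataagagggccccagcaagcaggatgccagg
Ctsg: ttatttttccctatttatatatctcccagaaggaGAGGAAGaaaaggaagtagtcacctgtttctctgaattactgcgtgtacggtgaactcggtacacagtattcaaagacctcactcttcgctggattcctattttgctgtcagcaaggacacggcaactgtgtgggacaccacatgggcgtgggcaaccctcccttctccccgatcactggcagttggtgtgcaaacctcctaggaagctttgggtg
The letters GAGGAAG stood on the gene's own strand in 4 of the 10 windows, and these were the 4 primary granule genes. *Mpo* held 2 matches, the first bases of which were 247 and 224 bases before the start, and the other matches began 85 (*Elane*), 95 (*Prtn3*) and 216 (*Ctsg*) bases before it. Among 32817 promoter windows of the same length, 5.53% held GAGGAAG on the gene's strand and 10.6% held it on either strand. On either strand 6 of the 10 windows held it, since *S100a8* and *Lcn2* had its reverse complement CTTCCTC. The motif was picked after these sequences had been read, so that the count describes the windows and tests nothing.

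The alarmin genes had the highest levels of the 10 genes in each tissue library, and both were highest in the KO spinal column. *S100a8* (NM_013650; mm9 chromosome 3, 90472993 to 90473956, plus strand, 3 exons), the smaller partner of calprotectin, was at 30.8 FPKM in spinal cord, 406 FPKM in the WT column and 855 FPKM in the KO column. *S100a9* (NM_009114; chromosome 3, 90496555 to 90499613, minus strand, 3 exons), its larger partner, was at 14.5 FPKM in spinal cord, 127 FPKM in the WT column and 314 FPKM in the KO column. The order of the 3 tissue libraries was the same for both. *S100a8* exceeded *S100a9* by 2.12-fold in spinal cord, 3.19-fold in the WT column and 2.72-fold in the KO column, a comparison per length of transcript.

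The secondary granule genes were well above spinal cord in the column but did not share a direction between the genotypes. *Lcn2* (NM_008491; chromosome 2, 32240157 to 32243259, minus strand, 5 exons), which binds bacterial siderophores, was at 1.66 FPKM in spinal cord, 67.3 FPKM in the WT column and 40.4 FPKM in the KO column. *Ngp* (NM_008694; chromosome 9, 110322312 to 110325516, plus strand, 4 exons), encoding neutrophilic granule protein, was at 3.06, 35.6 and 44.6 FPKM in the same libraries. *Camp* (NM_009921; chromosome 9, 109749891 to 109751970, minus strand, 4 exons), the precursor of an antimicrobial peptide, was at 0.824, 12.2 and 33.1 FPKM. *Ltf* was the lowest of the 4 in the column. *Ltf* (NM_008522; chromosome 9, 110921796 to 110945270, plus strand, 17 exons), the iron-binding lactoferrin, was at 0.325 FPKM in spinal cord, 4.68 FPKM in the WT column and 4.58 FPKM in the KO column. *Camp*, *Ngp* and *Ltf* lie in this order on chromosome 9.

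The primary granule genes were scarce in every library, and all 4 were highest of the tissues in the KO column. *Mpo* (NM_010824; chromosome 11, 87607286 to 87617914, plus strand, 14 exons), which makes hypochlorous acid, was at 0.173 FPKM in spinal cord, 0.584 FPKM in the WT column and 1.85 FPKM in the KO column. *Elane* (NM_015779; chromosome 10, 79349057 to 79350961, plus strand, 5 exons), the elastase gene, was listed at 0 in spinal cord and in the WT column and was at 1.76 FPKM in the KO column. *Ctsg* (NM_007800; chromosome 14, 56718718 to 56721411, minus strand, 5 exons), the cathepsin G gene, was listed at 0 in spinal cord and was at 0.725 FPKM in the WT column and 2.37 FPKM in the KO column. *Prtn3* broke the pattern between tissues. *Prtn3* (NM_011178; chromosome 10, 79342412 to 79345917, plus strand, 5 exons), the proteinase 3 gene, was at 2.11 FPKM in spinal cord, above the 1.17 FPKM of the WT column and below the 4.35 FPKM of the KO column. *Prtn3*, *Elane* and *Cfd*, the gene for complement factor D, follow each other on one strand of chromosome 10.

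**Figure D1:**
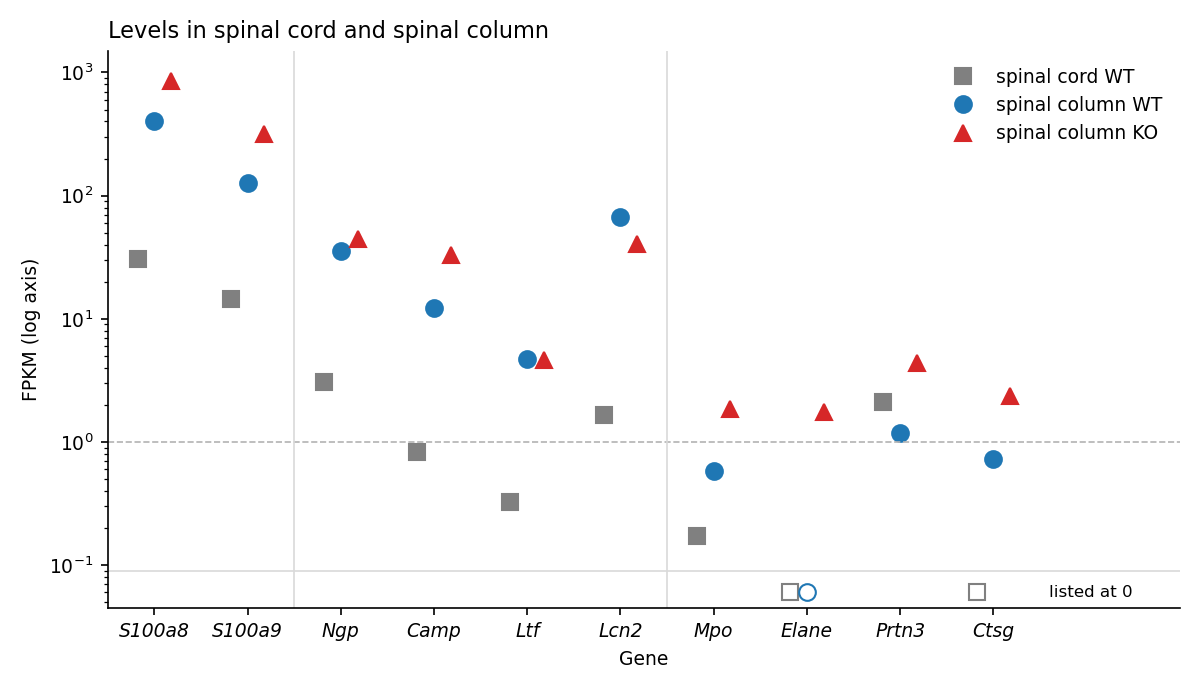
FPKM (log axis) of the 10 genes in spinal cord WT (squares), spinal column WT (circles) and spinal column KO (triangles), 1 library each, with open symbols for values listed at 0 and a dashed line at 1 FPKM. *S100a8* tops the plot at 855 FPKM in the KO column, *Lcn2* lies below its WT value there, and the 4 primary granule genes at the right stay under 5 FPKM.

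Summed by class, the granule genes compared between the genotypes as follows, with no test of a difference between classes. The alarmins summed to 533 FPKM in the WT and 1170 FPKM in the KO column, a 2.19-fold difference. The secondary granule genes summed to 120 and 123 FPKM, 1.02-fold, because *Camp* and *Ngp* were higher and *Lcn2* was lower. The primary granule genes summed to 2.48 and 10.3 FPKM, 4.16-fold. The sum of the secondary granule genes was therefore 48.2 times that of the primary granule genes in the WT column and 11.9 times in the KO column.

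Gene by gene, a locus counted as called when it was above 1 FPKM in at least 1 of both libraries and past 2-fold, which 9.05% of 14249 loci were toward the KO and 8.54% toward the WT column. Of the 10 granule genes, 7 were called higher in the KO column and 0 lower. *S100a8* was 2.11-fold, *S100a9* 2.47-fold and *Camp* 2.72-fold higher (log2 ratios 1.08, 1.30 and 1.44). *Mpo* was 3.18-fold, *Ctsg* 3.26-fold and *Prtn3* 3.71-fold higher (1.67, 1.71 and 1.89), and *Elane* has no ratio because its WT value is 0. *Ngp* (log2 ratio 0.32), *Ltf* (-0.03) and *Lcn2* (-0.74, 1.67-fold lower) were within 2-fold. The median over the 10 genes was 1.37, and over all loci above 1 FPKM it was 0.06.

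The filter let *Mpo*, *Elane* and *Ctsg* in only through their KO values, so that they could enter the count in no other direction. Above 1 FPKM in both libraries were 7 of the 10 genes, and 4 of these (*S100a8*, *S100a9*, *Camp* and *Prtn3*) were called higher, where 6.36% of 12966 loci were, and 0 were called lower, where 6.6% were. Calls in both directions were also more frequent at low levels. Among 4618 loci whose higher value was above 1 and up to 5 FPKM, 10.8% were called higher and 12.3% lower, and 5 of the granule genes fell in this range: the 4 primary granule genes, all called higher, and *Ltf*, which was not called. With 1 FPKM added to each value before the ratio, *Mpo* (0.85) and *Ctsg* (0.96) were within 2-fold, and 5 of the 10 genes were called higher, where 6.04% of loci were, and 0 lower, where 4.01% were.

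For 4 of the genes the call depended on the scaling. FPKM summed to 519632 over all loci in the WT column library and to 761053 in the KO column library. When both were rescaled to the same sum, the log2 ratios dropped by about the same amount for every locus, their median moved from 0.06 to -0.49, and 3.26% of loci were called higher and 24.4% lower, in place of 9.05% and 8.54%. Under that scaling *S100a8* (0.53), *S100a9* (0.75) and *Camp* (0.89) were within 2-fold, *Lcn2* (-1.29) was called lower, and *Mpo* (1.12), *Ctsg* (1.15), *Prtn3* (1.34) and *Elane* were still called higher.

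The KO over WT ratio also followed transcript length, and the granule genes are not of one length. Among loci above 1 FPKM with a length in the mm9 annotation, the median log2 ratio was 0.88 for 1074 transcripts of up to 1 kb, 0.46 from 1 to 2 kb, 0.14 from 2 to 3 kb, -0.16 from 3 to 5 kb and -0.62 for 2091 transcripts over 5 kb. Of the shortest class, 39.3% were called higher. *S100a8* (392 nt), *S100a9* (512 nt) and *Camp* (601 nt) belong to that class, as does *Elane* (920 nt). *Ctsg* (1002 nt), *Prtn3* (1025 nt), *Ngp* (1217 nt) and *Lcn2* (1374 nt) fall in the next, and *Ltf* (2742 nt) and *Mpo* (2750 nt) in the third.

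Each gene was therefore set beside the 500 other loci above 1 FPKM nearest to it in transcript length. The alarmins were ordinary among them: *S100a8* exceeded their median log2 ratio by 0.13, at percentile 60 of their ratios, and *S100a9* by 0.35, at percentile 78. *Camp* lay 0.51 above its neighbours in length, at percentile 83.2. *Ltf* differed from its neighbours by -0.05 and *Ngp* by -0.26, at percentiles 45.2 and 29.6, and *Lcn2* by -1.23, at percentile 5. The 4 primary granule genes stood higher, 3 of them (*Mpo*, *Elane* and *Ctsg*) let in only by their KO value. *Ctsg* exceeded its neighbours by 1.002 (percentile 93.6), *Prtn3* by 1.18 (percentile 95.2) and *Mpo* by 1.64 (percentile 97.2), and *Elane* was at percentile 97.8. With this subtraction 4 of the 10 genes were past 2-fold higher and 1, *Lcn2*, was past 2-fold lower, against 4.8% and 6.04% of 12408 loci. *Ctsg* lay at the threshold itself, with a difference of 0.94 against 200 neighbours.

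The levels of the primary granule genes were low for their length as well. In the KO column *Elane*, *Ctsg*, *Mpo* and *Prtn3* stood at percentiles 10.8, 13.2, 15.4 and 21 of the levels of these neighbours. *S100a8* was at percentile 85, *S100a9* at 74.4, *Lcn2* at 73.4 and *Ngp* at 69.6 of theirs, *Camp* at 43 and *Ltf* at 34.2. The depth of the column libraries is unknown, and how far counting error reaches at 1 to 5 FPKM there was not measurable.

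**Figure D2:**
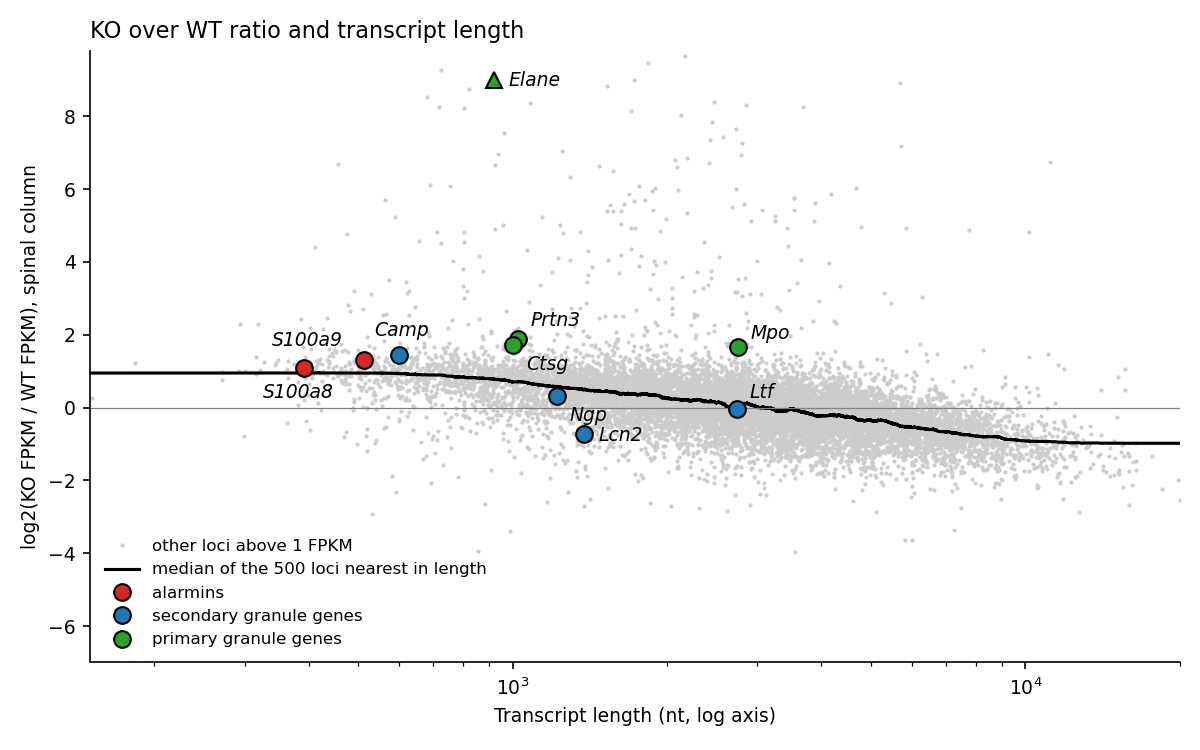
Log2 ratio of FPKM, KO over WT spinal column, against transcript length in nt (log axis) for loci above 1 FPKM (grey), with the median of the 500 loci nearest in length (black line). *S100a8*, *S100a9*, *Camp*, *Ngp* and *Ltf* lie near the line, *Lcn2* below it and *Mpo*, *Prtn3* and *Ctsg* above it; *Elane*, which has no ratio because it is listed at 0 in WT, is drawn as a triangle near the upper edge.

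Compared with spinal cord, the column held far more alarmin and secondary granule transcript. The libraries come from tables that were normalized separately, so that the ratios carry the scaling of both. Of the 7 genes above 1 FPKM in at least 1 of both WT libraries, 6 were called higher in the column, where 17.3% of 14211 loci were, and 0 were called lower, where 16% were. *Lcn2* was 40.4-fold higher (log2 ratio 5.34), *Camp* 14.7-fold, *Ltf* 14.4-fold, *S100a8* 13.2-fold, *Ngp* 11.7-fold and *S100a9* 8.75-fold. The median over the 7 genes was 3.72, and over all loci it was -0.08. Only *Prtn3* had a ratio below 0, at -0.85. *Camp* and *Ltf* passed the filter only by their column value. Of the 5 genes above 1 FPKM in both libraries, 4 were called higher, where 12% of 12456 loci were, and 0 lower, where 14.4% were. *Mpo*, *Elane* and *Ctsg* were at or under 1 FPKM in both WT libraries and entered no count, though *Mpo* was higher in the column (0.584 against 0.173 FPKM).

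The alarmin and secondary granule genes stood high among loci of like length as well. Against 500 such loci, *Ltf* stood at percentile 97.6 of the column over cord ratios, *Lcn2* at 94.6, *Ngp* at 93, *Camp* at 91.8, *S100a8* at 87.8 and *S100a9* at 87.6, and *Prtn3* at 16. The sums tell the same of the classes: the alarmins were 11.8-fold, the secondary granule genes 20.4-fold and the primary granule genes 1.09-fold higher in the WT column than in spinal cord. The last value rests on *Prtn3*, which made up most of the primary sum in spinal cord.

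The cultures, which contain no marrow, were near 0 for most of these genes. *S100a9* was listed at 0 in all 8 libraries, and *Ngp*, *Mpo*, *Elane* and *Ctsg* did not exceed 0.137 FPKM in any. *Camp* was highest at 0.166 FPKM in WT EBs of day 6. *Ltf* ranged from 0.0133 FPKM in KO ES cells to 0.768 FPKM in KO EBs of day 6. In ES cells and in EBs of days 2 and 4, low values fell on steps of a size that gave the worth of 1 fragment, and from it about 30900000 to 124000000 fragments per library. By that measure *Ngp* and *Ctsg* rested on about 1 fragment each in ES cells, and *Mpo* in KO EBs of day 4 on about 1.78.

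*Prtn3*, alone among the 10 genes, was at 0.519 FPKM or above in every culture. It was at 1.74 FPKM in WT and 1.82 FPKM in KO ES cells, at 0.932 and 0.519 FPKM in EBs of day 2, at 1.16 and 1.23 FPKM in EBs of day 4, and at 4.74 and 1.61 FPKM in EBs of day 6. The ES values rest on about 103 and 87.3 fragments, and those of day 4 on about 138 and 156. Its level in WT EBs of day 6 was the highest of all libraries and lay above that of the KO column. The mm9 annotation (GENCODE vM1) also holds a processed transcript of *Prtn3* that starts farther upstream, at 79337221, just inside the gene *BC005764* of the opposite strand, which starts at 79337379. Whether fragments from that transcript entered the *Prtn3* value was not tested.

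**Figure D3:**
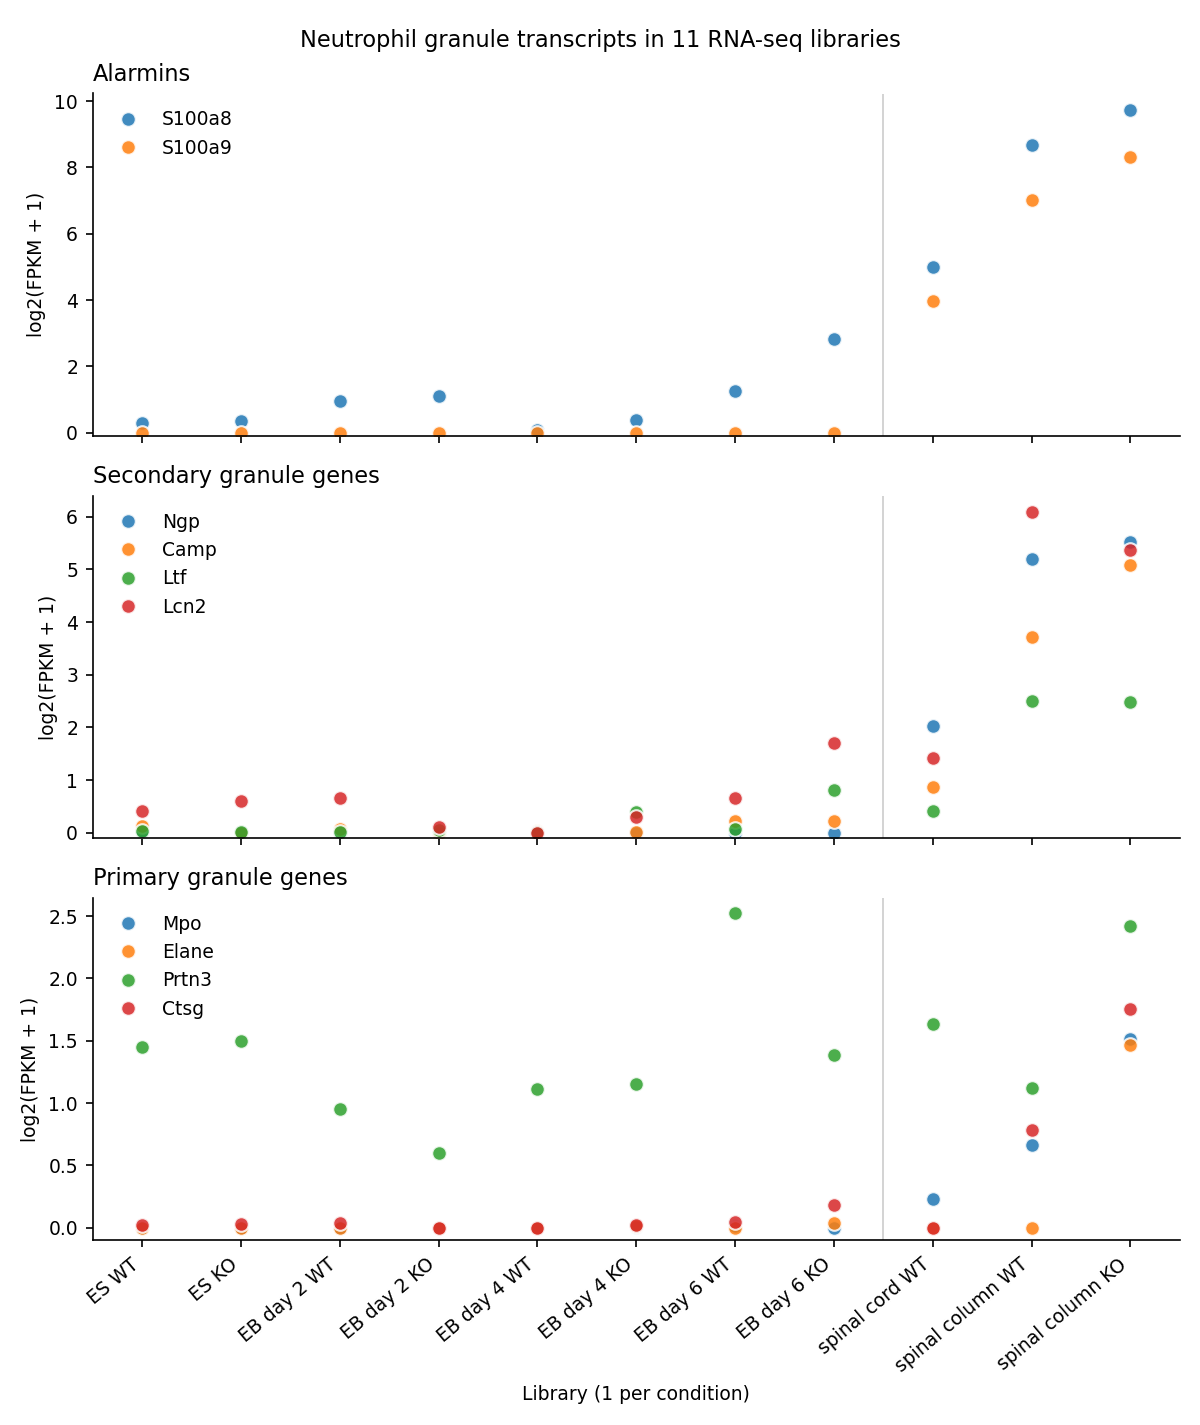
Log2(FPKM + 1) of the alarmin, secondary and primary granule genes in the 11 RNA-seq libraries, with the 8 cultures left of the vertical line and the 3 tissues right of it; each point is 1 library, and the vertical scales differ between panels. In the cultures *Prtn3* stands above the other primary granule genes, and *S100a8* (6.06 FPKM) and *Lcn2* (2.28 FPKM) are visible in KO EBs of day 6.

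Above 1 FPKM in EBs of day 6 were *S100a8*, *Lcn2* and *Prtn3*, each past 2-fold between the genotypes. *S100a8* was at 1.39 FPKM in WT and 6.06 FPKM in KO EBs (log2 ratio 2.12), and *Lcn2* at 0.585 and 2.28 FPKM (1.96). *Prtn3* was 2.94-fold lower in the KO (log2 ratio -1.56). Of these 3 genes 2 were thus called higher and 1 lower, where 10.5% and 9.91% of 12996 loci were. *Lcn2* passed the filter only by its KO value. Under 1 FPKM in both libraries, *Ltf* was at 0.0527 and 0.768 FPKM and *Ctsg* at 0.0315 and 0.137 FPKM. Epithelium and keratinocyte markers summed to 177 FPKM in WT and 1108 FPKM in KO EBs of day 6, with *Krt8* at 47.2 and 441 FPKM and *Krt18* at 60.4 and 484 FPKM, while *Krt10* was lower in the KO, at 2.91 and 1.15 FPKM, and *Krt1* was at 0.0586 and 0.0505 FPKM. All 9 of these markers were above 0 in both libraries. Leukocyte markers summed to 19.4 and 57.4 FPKM, of which *Laptm5* made up 11.1 and 51.7 FPKM, while *Ptprc*, the gene for CD45, was listed at 0 in both libraries. Monocyte and macrophage markers summed to 0.398 and 1.66 FPKM. The part of any of these in the *S100a8* and *Lcn2* values was not tested.

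At the earlier stages 1 gene at a time passed 1 FPKM and none was called. *Prtn3* had log2 ratios of 0.07 in ES cells and 0.08 in EBs of day 4, and *S100a8* was at 0.950 and 1.14 FPKM in EBs of day 2. The backgrounds were 0.541% higher and 0.591% lower in ES cells, 1.19% and 1.37% in EBs of day 2, and 12.1% and 4.44% in EBs of day 4. Below 1 FPKM, *Ltf* was at 0.0158 FPKM in WT and 0.321 FPKM in KO EBs of day 4, from about 5.01 and 109 fragments. *Lcn2* was listed at 0 and at 0.229 FPKM in the same libraries, the latter from about 39.0 fragments. *S100a8* was at 0.0505 and 0.315 FPKM there, from about 2.28 and 15.3 fragments. *Camp*, at 0.0306 and 0.0147 FPKM from about 2.12 and 1.09 fragments, was lower in the KO library. All of these levels were far under those of the column.

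From WT EBs of day 6 to the WT column, which again stand in separate tables, 6 of 7 genes were called higher (26.9% of 14551 loci) and 1, *Prtn3*, was called lower (31.2%). *S100a8* was 291-fold higher, *Lcn2* 115-fold, *Ltf* 88.7-fold and *Camp* 73.2-fold, while *S100a9* and *Ngp* have no ratio because they are listed at 0 in EBs. *Prtn3* was 4.04-fold lower in the column (log2 ratio -2.02). *S100a9*, *Ngp*, *Camp*, *Ltf* and *Lcn2* passed the filter only by their column value. Above 1 FPKM in both libraries were 2 genes, *S100a8*, called higher (15.8% of 11365 loci), and *Prtn3*, called lower (32.1%).

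The other neutrophil genes, from a list of 36 of which 35 were found, were mostly higher in the column than in spinal cord and mostly within 2-fold between the genotypes. Of 26 above 1 FPKM in the WT tissues, 24 were called higher in the column and 0 lower, where 17.3% and 16% of all loci were, with a median log2 ratio of 1.87. Most of the 26 passed the filter only by their column value. Between the genotypes 6 of 30 were called higher in the KO column and 1 lower, where 9.05% and 8.54% of all loci were, with a median of 0.33. *Mmp9*, the gelatinase of the tertiary granules, was at 3.49 FPKM in spinal cord, 130 FPKM in the WT column and 89.9 FPKM in the KO column. *Retnlg*, a resistin-like gene of neutrophils, was at 0.970, 45.3 and 56.2 FPKM. *Cyba*, a subunit of the oxidase that makes superoxide, had the highest ratio among those above 1 FPKM in both column libraries, from 43.4 to 113 FPKM, and *Mmp25*, a membrane-bound metalloprotease, the lowest, from 2.96 to 1.58 FPKM.

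The remaining calls of that list, and *Prss57*, are named although their values were seen first. *Ms4a3*, a gene of early granulocyte precursors, was at 0.337 FPKM in the WT and 1.48 FPKM in the KO column, and *Fpr1*, a receptor for formyl peptides, at 0.443 and 1.33 FPKM. *Prss57*, a serine protease of the primary granules that was not called, was at 1.77 and 2.12 FPKM. *Lyz2*, lysozyme, was at 25.4 and 56.9 FPKM, and *Anxa1*, annexin A1, at 45.2 and 94.0 FPKM. *Cd177*, a surface protein of mature neutrophils, was called lower, from 1.72 to 0.547 FPKM. *Cfd*, the neighbour of *Prtn3* and *Elane* and also a gene of fat cells, had the largest ratio of the list, from 0.682 to 20.5 FPKM. With the median of loci of like length subtracted, 3 of 29 genes were past 2-fold higher (*Ms4a3*, *Fpr1* and *Cfd*) and 1 lower (*Cd177*), and the median of the list was 0.11. Each of these 4 was above 1 FPKM only in the library where it was higher, so that the filter fixed its direction.

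All 16 regulators of granulocyte formation were found. In the column over cord comparison 8 of 12 were called higher, where 17.3% of all loci were, and 0 lower, where 16% were. Of the genes called, *Runx1*, *Csf3r* and *Csf2rb* passed the filter only by their column value. Between the genotypes 1 of 12 was called higher and 0 lower in the KO column, near the 9.05% and 8.54% of all loci, and the log2 ratios ran from -0.98 to 1.77 with a median of 0.01. *Cebpa*, which starts the granulocyte program and is also active in fat and skin, was the one called, at 2.59 FPKM in the WT and 8.84 FPKM in the KO column. *Cebpb*, its relative of emergency granulopoiesis, was at 41.3 and 26.2 FPKM and past 2-fold lower less the median of loci of like length (-1.09), and *Stat3*, which signals below the G-CSF receptor, at 33.1 and 24.9 FPKM. *Runx1* was lowest in ratio, at 3.50 and 1.78 FPKM. Of factors known from promyelocytes, named here after their values were seen, *Cebpe* was at 0.0728 and 0.851 FPKM, *Gfi1* at 0.0776 and 0.592 FPKM and *Myb* at 0.226 and 0.907 FPKM. All 3 were higher in the KO column and under 1 FPKM in both, so that they entered no count. Regulators that did enter it ran both ways, such as *Runx1* (-0.98), *Cebpb* (-0.66), *Spi1* (0.19) and *Cebpa* (1.77). In EBs of day 6, which contain no marrow, *Cebpe* was at 0.531 (WT) and 0.604 FPKM (KO). *Gfi1* was at 0.362 and 0.182 FPKM there, and *Myb* at 0.620 and 0.382 FPKM. These genes thus do not mark granulocytes by themselves.

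Receptors and inhibitors of the granule proteins had 6 of 12 genes called higher and 2 lower in the KO column, where 9.05% and 8.54% of all loci were, with a median of 1.04. Of the 6, *Ager* (0.603 and 2.60 FPKM), *Serpina1a* (0.226 and 1.30 FPKM) and *Serpina1b* (0.409 and 1.58 FPKM), named after their values were seen, passed the filter only by their KO value. *Wfdc21*, a small whey acidic protein gene, was listed at 0 in spinal cord and was at 8.49 FPKM in the WT and 47.1 FPKM in the KO column. *Slpi*, an inhibitor of elastase and cathepsin G that skin also makes, was named after its values were seen, at 1.41 and 5.18 FPKM. *Lrp1*, an endocytic receptor, was the lowest in ratio, at 12.5 and 3.49 FPKM (log2 ratio -1.84). With the median of loci of like length subtracted, *Lrp1* was at -0.87 and so within 2-fold. By that measure 5 of 12 genes were past 2-fold higher and 1 lower, where 4.8% and 6.04% of 12408 loci were. *Ager*, *Serpina1a* and *Serpina1b* are among the 5. *Cst3*, cystatin C, was at 691 and 923 FPKM, and *Slc22a17*, a receptor for lipocalin 2, at 128 and 77.8 FPKM.

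Markers of other cell types differed beside the granule genes between the genotypes. Of 9 epithelium and keratinocyte markers, 7 were called higher in the KO column, where 9.05% of all loci were, with a median log2 ratio of 4.37 and a sum of 14.7 FPKM in the WT and 782 FPKM in the KO column. None of the 9 was listed at 0 in either library, and *Krt5*, *Krt14* and *Epcam* passed the filter only by their KO value. *Krt10* was at 3.60 and 352 FPKM and *Krt1* at 1.04 and 238 FPKM, both keratins of the outer epidermis. *S100a8*, *S100a9* and *Lcn2* are made in skin too, so that these values stand beside theirs, and the part of epidermal RNA in the difference was not tested.

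Mast cell, eosinophil and basophil markers, which include neighbours of *Ctsg* in the protease cluster of chromosome 14, had 5 of 6 genes called higher in the KO column, where 9.05% of all loci were, with a median of 1.45. They summed to 2.92 FPKM in spinal cord, 126 FPKM in the WT and 341 FPKM in the KO column, led by *Tpsb2*, a tryptase, at 59.4 and 154 FPKM. *Cma1*, a chymase, was at 21.8 and 73.7 FPKM, and *Fcer1a*, the receptor for IgE, at 1.38 and 1.43 FPKM. *Ctsg* can be transcribed in mast cells also, and their part in its value was not tested. Leukocyte markers had 2 of 8 called higher (median 0.55), monocyte and macrophage markers 1 of 10 (0.55), megakaryocyte markers 2 of 4 (0.80) and lymphocyte markers 3 of 4 (1.22), each with 0 called lower. Over all loci 9.05% were called higher and 8.54% lower, and of transcripts up to 1 kb 39.3% were called higher. *Vpreb1*, *Vpreb3* and *Prg2* passed the filter only by their KO value. These blood lists thus had medians above 0 in the KO column, as did short transcripts.

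With the median of loci of like length subtracted, the same blood lists came nearer to 0. Their medians were 0.08 for leukocytes, 0.06 for monocytes and macrophages, 0.38 for megakaryocytes, 0.47 for lymphocytes and 0.74 for mast cells, eosinophils and basophils. That of the primary granule genes was 1.41, that of the alarmins 0.24 and that of the secondary granule genes -0.15. The first of these rests on 4 genes of which *Mpo*, *Elane* and *Ctsg* passed the filter only by their KO value, so that it is no measure of how the class compares with the blood lists, some of which hold such genes too. Fibroblast markers had a median of 0.40, cartilage and bone markers -0.06, and neuron markers -0.91, with 3 of 7 past 2-fold lower. Muscle markers had a median of -0.21, but *Ckm* was at 3407 FPKM in the WT and listed at 0 in the KO column, and *Myh8* was listed at 0 in the WT and at 753 FPKM in the KO column. Both are among 13 loci that the table marks HIDATA, the Cuffdiff status for too many fragments to quantify, and that it lists at 0 in at least 1 of both libraries. None of the granule genes carries that mark.

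**Figure D4:**
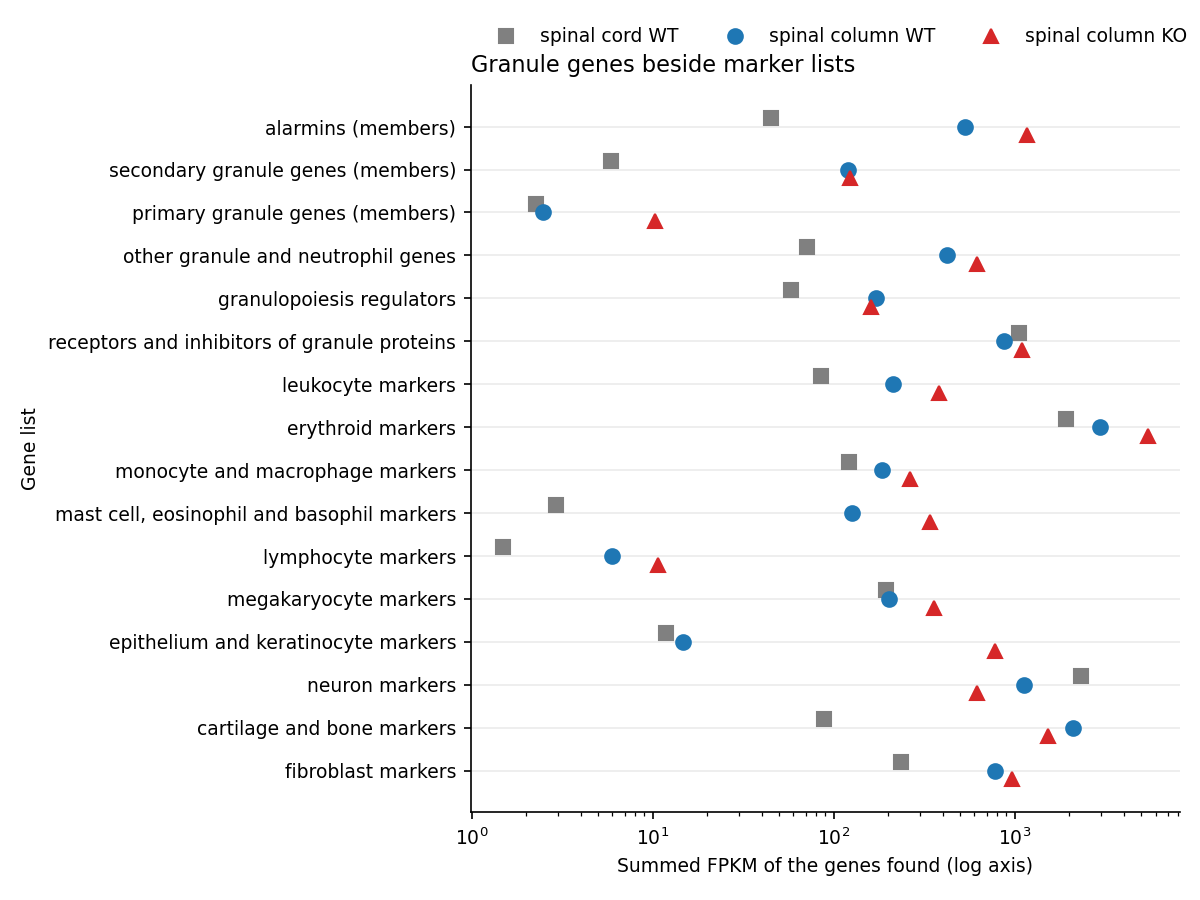
Summed FPKM (log axis) of the granule genes and of 13 other gene lists in spinal cord WT (squares), spinal column WT (circles) and spinal column KO (triangles), 1 library each. The alarmins are at 45.3, 533 and 1170 FPKM, the secondary granule genes lie together in both column libraries, and the epithelium and keratinocyte list is far higher in the KO column.

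The loci whose profile over the 11 libraries was nearest to the median profile of the 10 granule genes were not neutrophil genes by the lists used here. By Euclidean distance of the centred log2(FPKM + 1) values, among 15954 loci above 1 FPKM in at least 1 library, they were *Ucma*, *Hdc*, *Pbxip1*, *Popdc3*, *Smim5*, *Slfn2*, *Dnase1l1*, *C1qtnf9*, *Dnaja4* and *Cytl1*, at distances of 0.474 to 0.756. *Ucma*, a protein of cartilage, was at 0.662 FPKM in spinal cord, 8.42 FPKM in the WT and 9.75 FPKM in the KO column. *Hdc*, the enzyme that makes histamine, was at 0.520, 9.08 and 14.7 FPKM. The granule genes themselves lay farther from their own median profile, between 1.26 (*Ltf*) and 7.10 (*S100a8*), so that this likeness is one of shape at a middle level over libraries that differ in tissue.

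TAF9B and RNA POL2 ChIP peaks come from EB motor neuron cultures of the HBG3 clone, with 1 library for each antibody. These cultures were differentiated for longer than the EBs of day 6, and RNA-seq of them was not analysed here. The split of loci at 1 FPKM below thus takes its levels from another clone and an earlier day. None of the 10 genes had a peak midpoint within 500 bp of its start site in either list. Over 19701 loci with a strand, 18.5% had a TAF9B peak and 31.2% a POL2 peak there, and over the 9041 loci at or under 1 FPKM in WT EBs of day 6 the shares were 6.54% and 5.82%. Within 50 kb, 6 of the 10 genes had a TAF9B peak and 5 a POL2 peak, against 53.0% and 54.8% of all loci and 36.7% and 29.7% of those at or under 1 FPKM. The nearest TAF9B peaks were 8.11 kb from *Ngp* (score 64.18) and 8.45 kb from *Lcn2* (score 169), where the median score of the list was 83.3. Nearest of the POL2 peaks was one 5.11 kb before the start of *Prtn3* (mm9 chromosome 10, 79336814 to 79337795, score 250.2). It spans the start of the *Prtn3* transcript that begins farther upstream and that of *BC005764*. A peak near a gene does not assign it to that gene.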

How the data were processed

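Poly-A RNA-seq was analysed from the FPKM values that the authors deposited, after alignment with TopHat, guided by RefSeq genes on mm9, and quantification in Cuffdiff. ChIP peaks and their scores are those the authors deposited, made with Bowtie and MACS. Versions and options are not given in the sources used here, and the submitters' processing notes name mm9, Bowtie, Cuffdiff and TopHat without versions. Columns of fold changes and p-values from the authors' own comparisons were not used, nor was the IgG library, for which no file was analysed here.

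Rows were joined between the 6 tables by first accession and locus. Of 23152 rows, 43 that repeat an accession and locus were left out, 22789 were given a symbol (RefSeq, GRCm38.p6, for names only) and 19701 (85.3%) a transcript length, from the GENCODE vM1 transcript of matching span on mm9. Ratios are log2 of FPKM without a pseudocount, and values listed at 0 stand beyond all others in medians. Called means above 1 FPKM in at least 1 library and past 2-fold. Read counts are unknown for the tissues and EBs of day 6, where no fragment step was visible. Start positions are 1-based.

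The members and lists were chosen with earlier results of these data known. Named genes are all 10 members and, of the lists of other granule genes, regulators, and receptors and inhibitors, the 2 highest in the WT column and the highest and lowest KO over WT ratio above 1 FPKM in both column libraries, and the 10 loci of nearest profile, besides examples from the cell type markers and those said to be named after their values were seen. Cell type lists gave no value for *Ly6g*, *Hba-a1*, *Hbb-b1*, *Hbb-b2*, *Ahsp* and *Cd68*. Software was Python 3.11.15, numpy 2.4.6, pandas 2.3.3 and matplotlib 3.10.9.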

Additional observations from a re-analysis of the deposited data

Results flagged for a closer look

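Of the 3 granule genes above 1 FPKM in EBs of day 6, 2 had a KO over WT ratio that pointed one way in spinal column and the other way in EBs of day 6. *Lcn2* had a log2 ratio of -0.74 in spinal column and 1.96 in EBs of day 6. *Prtn3* had a log2 ratio of 1.89 in spinal column and -1.56 in EBs of day 6. With 1 library per condition the difference was not tested, and the ratio of *Lcn2* in spinal column was within 2-fold. Among genes under 1 FPKM in EBs of day 6, *Ltf* had log2 ratios of -0.03 and 3.86 and *Camp* of 1.44 and -0.04, and *Mpo*, at 1.67 in spinal column, was listed at 0 in KO EBs. The summed level of epithelium and keratinocyte markers was higher in the library labelled KO in both comparisons, though *Krt10* was lower in it in EBs of day 6, and *Taf9b* was lower in that library in spinal column and higher in it in EBs of day 6.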

How the results depend on the processing

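Of 135 counts and medians recomputed under an alternative, 105 stayed within 1.5-fold and 30 moved, and of 235 ratios of single genes 213 did so and 22 moved. No called value changed direction, and ratios against a value listed at 0 were left out. Shown here are the counts and medians that moved, and the cause was not tested unless it is named.

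In spinal column, KO over WT (7 higher, 0 lower, median 1.37), 3 genes were called higher above 5 FPKM, which leaves 5 genes, and 1 at 4-fold. With 1 FPKM added, 5 were called higher, without *Mpo* (0.85) and *Ctsg* (0.96). Rescaled to the same sum 4 were called higher and 1 lower. Less the median of loci of like length 4 were called higher and 1 lower, with a median of 0.43. Above 1 FPKM in both libraries, a filter chosen after the data were seen, 4 were called higher. In spinal column over spinal cord (6 higher, 0 lower, median 3.72), the median was 3.05 with 1 FPKM added, and *Prtn3* was called lower (1 gene) after rescaling and less loci of like length. In spinal column over EBs of day 6, the median was 5.19 with 1 FPKM added. Above 5 FPKM it was 8.18 with 0 genes lower, and above 1 FPKM in both libraries 2 genes were left, 1 of them called higher, with a median of 3.08.

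Without a filter, ES cells had 1 gene lower, EBs of day 2 had 1 higher and 3 lower with a median of -1.80 (from 0.26 for *S100a8* alone), EBs of day 4 had 6 higher and 1 lower with a median set by values listed at 0 and so without a number, and EBs of day 6 had 5 higher and 2 lower. In EBs of day 6 the median was 1.05 with 1 FPKM added, and 1 gene was higher and 0 lower above 5 FPKM. That filter left no gene in ES cells and in EBs of days 2 and 4. TAF9B peaks stood within 10 kb of 2 genes and, with a score above the median, within 50 kb of 3, and POL2 peaks within 10 kb of 2.

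Rescaling split the loci called in spinal column over spinal cord into 13.4% higher and 25.4% lower, from 17.3% and 16%, and over EBs of day 6 into 34.9% and 18.4%, from 26.9% and 31.2%. No paired analysis was possible because each condition is 1 library, and for the same reason no run without a replicate exists. The depth of the tissue libraries is unknown, so that the counting error of the primary granule genes, at 0 to 5 FPKM, is unknown too.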
